A study of Homo sapiens with 6 samples.

Results

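The genes described here were 10 genes that set the activity of the transcription factor NRF2: the activator genes NFE2L2 (which encodes NRF2) and NFE2L1, the partner genes MAFG, MAFF and MAFK, the repressor gene BACH1, the ubiquitin ligase genes KEAP1 and CUL3, the cargo receptor gene SQSTM1 and the kinase gene FYN. They were listed by their role in the pathway, with earlier results of these data known, from the 61541 genes of the count table. All 10 passed the filter on low counts, which left 14104 features for testing. RNA-seq had been done on 6 libraries of luciferases-expressing HepG2 cells, 3 labelled control and 3 treated with 100 µM sedanolide, a phthalide of celery, for 24 h. HepG2 is a human hepatoblastoma-derived line, and both groups carried the same reporter genes: SLR3, a red luciferase placed under antioxidant response elements, and ELuc, a green luciferase used as the internal control. The labels do not say what the control cells received in place of sedanolide, whether the libraries came from separate cultures, or whether the reporter line was 1 clone, so p-values measure only the spread between these libraries, which may be technical.

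In unstressed cells KEAP1 binds NRF2 and, through the scaffold protein CUL3, brings it to ubiquitination and breakdown in the proteasome. When electrophiles modify cysteines of KEAP1, NRF2 escapes, enters the nucleus, pairs with a small MAF protein and binds antioxidant response elements, where BACH1 paired with the same small MAF proteins otherwise represses. Because NRF2 is regulated largely at the protein level, RNA measures the supply of transcripts for these proteins and not their activity.

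The libraries held 16420258 to 26714853 expected counts. The libraries did not separate by treatment along the component of largest variance, which took 56.1% of the variance of log2 CPM (counts scaled to normalized library sizes per 1e+06). Side A of it held control libraries 1 and 2 with sedanolide 3, and mitochondrially encoded genes took 1.43% to 2.15% of their counts. Side B held the remaining control with sedanolide libraries 1 and 2, at 4.24% to 5.22%. Both sides held both groups, so members are also given within each side and from edgeR with treatment and side fitted together. The side was read from these same counts, members included, and such a term can narrow the spread that the test uses. Features past both thresholds went from 95 to 381 with it, so its smaller p-values are not separate support. Among 10 markers of hepatocyte-like cells, 10 passed the filter, and their summed level was 29870 to 45890 CPM in controls and 22060 to 38860 CPM with sedanolide. ALB (1039 to 1249 CPM in controls, 803.2 to 913.7 CPM with sedanolide) lay wholly lower with sedanolide. So did FGB (1250 to 1485, 907.8 to 1065) and TTR (37.75 to 39.39, 24.6 to 29.78), a position held by 9.66% of all features tested. The other markers of this class, AFP, APOA1, APOB, GPC3, HNF4A, SERPINA1 and TF, overlapped between the groups. Among 10 markers of other cells, CD3E and VWF were at 0 in every library, 5 others had at most 5 counts in any library, and ACTA2, LYZ and PECAM1 passed the filter. The summed level of those 10 was 881.6 to 1387 CPM in controls and 560.6 to 827.6 CPM with sedanolide. LYZ made up nearly all of that sum (804.1 to 1319 CPM in controls and 466.7 to 755.5 CPM with sedanolide), while ACTA2 (65.2 to 79.4 and 68.9 to 89.1 CPM) and PECAM1 (3.98 to 5.09 and 3.77 to 5.29 CPM) overlapped between the groups, and the part of these genes in the members' values was not tested.

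SQSTM1, KEAP1 and MAFG were the 3 members with every sedanolide value higher than every control value, and 0 members lay wholly below. Of all features tested, 8.69% lay wholly above and 9.66% wholly below. By edgeR's quasi-likelihood test, 0 of the 10 members passed both thresholds, an adjusted p under 0.05 (Benjamini-Hochberg) and a change of at least 1.5-fold, in either direction, while 0.362% of all features passed upward and 0.312% downward. At an unadjusted p under 0.05, 2 members were higher (SQSTM1 and KEAP1) and 0 lower, against 5.35% and 6.57% of all features. DESeq2 placed 1 member, SQSTM1, past both thresholds upward and 0 downward, against 0.922% and 1.40% of all features, and edgeR with the side as a term placed the same gene there, against 1.07% and 1.63%. At an unadjusted p under 0.05, DESeq2 had 3 members higher and 0 lower (6.17% and 6.24% of all features), edgeR with the side term 4 and 0 (9.44% and 10.1%), and limma on the length-scaled values had 2 and 0 of the 9 members given there (3.27% and 8.28% of the genes given there). The median log2 fold change of the 10 members was 0.16, that of all features was 0.01, and 6 of the 10 members had a positive value.

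**Figure D1:**
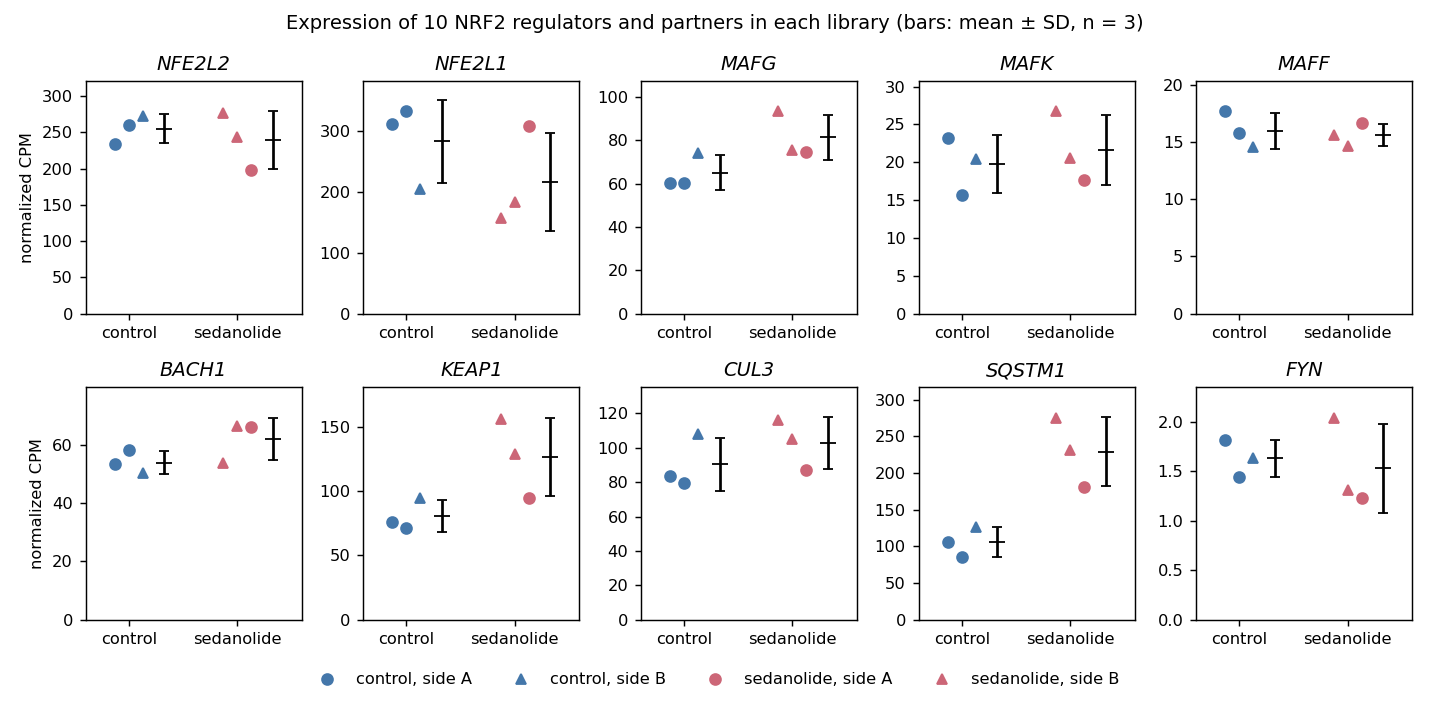
Normalized CPM (vertical axes, from 0, a separate scale for each gene) of the 10 members in every library; circles are libraries of side A and triangles those of side B, and the bars give the mean ± SD of 3 libraries. The sedanolide points of SQSTM1 sit at 181.7 to 274.4 CPM, above the control points at 85.7 to 126.8 CPM, while those of NFE2L2 and NFE2L1 overlap with the controls.

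NFE2L2, on chromosome 2 (chr2:177218667-177392756, minus strand, GRCh38), encodes NRF2 itself. Its level was 233.2, 259.4 and 272.0 CPM in controls 1 to 3 and 276.9, 243.0 and 198.3 CPM in sedanolide libraries 1 to 3. The highest and the lowest of the 6 libraries were both sedanolide libraries, so the groups overlapped. The means were 254.8 ± 19.8 and 239.4 ± 39.4 CPM (SD, n = 3 each), a log2 fold change of -0.09 ± 0.15 (SE) with an adjusted p = 0.842 by edgeR. The 95% interval ran from 0.734-fold to 1.20-fold, so a rise of 1.5-fold in NFE2L2 transcript lay outside it. Within side A the log2 difference was -0.31 and within side B it was -0.07. On the opposite strand, exons of HNRNPA3 share 3509 bases with annotated NFE2L2 exons and that gene held 276% of the counts of NFE2L2. Whether counting used the strand is not given in the sources used here, and HNRNPA3 itself had a log2 fold change of 0.06 (edgeR, adjusted p = 0.867).

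NFE2L1, on chromosome 17 (chr17:48048329-48061545, plus strand), encodes NRF1, a membrane-anchored relative of NRF2 that turns on proteasome genes after it is processed. Its level was 311.7, 332.6 and 205.4 CPM in the controls and 157.7, 184.1 and 309.0 CPM in the sedanolide libraries. The 3 libraries of side A were high (mean 317.8 CPM) and the 3 of side B were low (182.4 CPM), whatever their group, and this was the widest gap between the sides among the 10 members (log2 difference of B from A -0.75). The log2 fold change with sedanolide was -0.38 ± 0.29 (edgeR, adjusted p = 0.650). With the side as a term it was -0.16 ± 0.10 (edgeR, adjusted p = 0.420), and it was -0.06 within side A and -0.27 within side B.

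The small MAF proteins have a DNA-binding bZIP domain but no activation domain of their own, and each can pair with NRF2, NRF1 or BACH1. MAFG, on chromosome 17 (chr17:81918270-81927735, minus strand), was at 60.1, 60.4 and 74.2 CPM in the controls and 93.3, 75.7 and 74.8 CPM in the sedanolide libraries. The groups did not overlap in CPM, but control 3 and sedanolide 3 differed by less than 1 CPM, and in TPM (a length-scaled share of all transcripts) the groups overlapped, at 17.2 to 20.2 and 19.7 to 24.2. The means were 64.9 ± 8.05 and 81.2 ± 10.4 CPM, a log2 fold change of 0.32 ± 0.15 (95% interval -0.02 to 0.67; edgeR, adjusted p = 0.440), and the within-side differences were 0.31 and 0.19. MAFK (chr7:1530702-1543043, plus strand) ranged from 15.6 to 23.2 CPM in controls and from 17.7 to 26.7 CPM with sedanolide, a log2 fold change of 0.13 ± 0.21. MAFF (chr22:38200767-38216507, plus strand) ranged from 14.6 to 17.7 and from 14.7 to 16.6 CPM, a log2 fold change of -0.03 ± 0.13. For sides A and B the log2 differences were -0.13 and 0.21 for MAFK and -0.01 and 0.05 for MAFF. Neither MAFK (adjusted p = 0.832, edgeR) nor MAFF (0.936) passed the test, and the 95% intervals ran from -0.36 to 0.62 for MAFK and from -0.34 to 0.27 for MAFF. Exons of SIRT7 on the same strand share 105 bases with MAFG, an overlap that strand cannot resolve, and SIRT7 held 17.2% of the counts of MAFG and had a log2 fold change of -0.04 (edgeR, adjusted p = 0.934). Exons of TMEM184A on the opposite strand share 809 bases with MAFK, and those of PLA2G6 share 326 bases with MAFF, with 42.1% and 25.1% of the respective member's counts.

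On the TPM scale, which divides by transcript length, MAFG was the most abundant small MAF in every library. It made up 44.1%, 50.01% and 51.5% of the summed small MAF TPM in the controls and 55.9%, 53.3% and 52.9% in the sedanolide libraries. These shares did not overlap, and their means differed by 5.50 percentage points (48.5 ± 3.94% and 54.0 ± 1.62%). The exact two-sided permutation test gave p = 0.1, the smallest value that 3 against 3 libraries allow, and 0.3 after adjustment over the 3 genes. The shares of MAFK (24.3 ± 3.45% and 22.5 ± 1.67%) and MAFF (27.1 ± 3.87% and 23.5 ± 3.07%) overlapped. The summed TPM of the 3 small MAF genes was 38.0 to 39.1 in the controls and 36.9 to 43.3 with sedanolide.

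BACH1, on chromosome 21 (chr21:29194071-29630751, plus strand), encodes the heme-sensing repressor that competes with NRF2 for the small MAF partners. It was at 53.4, 58.1 and 50.2 CPM in the controls and 53.7, 66.5 and 66.0 CPM in the sedanolide libraries. Sedanolide 1 lay among the controls and the other 2 sedanolide libraries lay above them. The log2 fold change was 0.20 ± 0.13 (95% interval -0.10 to 0.51; edgeR, adjusted p = 0.595), with 0.24 within side A and 0.26 within side B.

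KEAP1, on chromosome 19 (chr19:10486125-10503558, minus strand), encodes the cysteine-rich sensor that binds NRF2. It was at 75.6, 71.6 and 94.3 CPM in the controls and 155.8, 128.7 and 94.8 CPM in the sedanolide libraries. All 3 sedanolide libraries lay above the controls, sedanolide 3 by less than 1 CPM. The means were 80.5 ± 12.2 and 126.4 ± 30.6 CPM, a log2 fold change of 0.65 ± 0.21 (1.57-fold, 95% interval 0.16 to 1.14 on the log2 scale; edgeR, unadjusted p = 0.0157, adjusted p = 0.279). With the side as a term the change was 0.48 ± 0.11 and its adjusted p was 0.0477 by edgeR, at a size below 1.5-fold. Within side A the log2 difference was 0.37 and within side B it was 0.59. In the TPM table the KEAP1 groups overlapped, at 48.7 to 67.3 TPM in controls and 63.3 to 87.2 TPM with sedanolide.

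CUL3, on chromosome 2 (chr2:224470150-224585397, minus strand), encodes the scaffold of the ligase. It was at 83.8, 79.8 and 108.2 CPM in the controls and 116.5, 104.9 and 87.0 CPM in the sedanolide libraries. The groups overlapped, and the 3 highest libraries were those of side B, with control 3 between sedanolide 1 and sedanolide 2. The log2 difference was 0.09 within side A and 0.03 within side B. The log2 fold change was 0.18 ± 0.17 (95% interval -0.22 to 0.58; edgeR, adjusted p = 0.709), and it was 0.06 ± 0.09 with the side as a term.

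SQSTM1, on chromosome 5 (chr5:179806398-179838078, plus strand), encodes p62, an autophagy cargo receptor that can bind KEAP1 at the site NRF2 uses. It was at 106.6, 85.7 and 126.8 CPM in the controls and 274.4, 232.0 and 181.7 CPM in the sedanolide libraries. Every sedanolide library lay above every control, and the closest pair was sedanolide 3 and control 3. The means were 106.4 ± 20.6 and 229.3 ± 46.4 CPM, a log2 fold change of 1.11 ± 0.21 (2.16-fold, 95% interval 1.54 to 3.02). In bulk RNA, more transcript per cell and more cells that hold the transcript cannot be told apart. SQSTM1 had the smallest p of the 10 members and the 170th smallest of all features (edgeR, unadjusted p = 0.00097, adjusted p = 0.0800). DESeq2 gave the same size, 1.11, with an adjusted p of 6.7e-05, and edgeR with the side as a term gave 0.96 ± 0.12 with an adjusted p of 0.00272. The within-side log2 differences were 0.92 and 1.00. By edgeR the adjusted p was 0.0314 without sedanolide 3 and 0.126 to 0.404 when each of the other libraries was left out. Only the fit without sedanolide 3 placed SQSTM1 past both thresholds. Of all features, 66 passed upward in that fit and 0 to 22 in the others, so few features of any kind passed there. The log2 fold changes were 0.96 to 1.26 over the 6 fits. In the TPM table SQSTM1 was at 113.3, 82.1 and 124.7 in the controls and 205.6, 196.4 and 189.7 in the sedanolide libraries, a difference of 0.90 ± 0.17 on the log2(TPM + 1) scale (limma, adjusted p = 0.103). Exons of MGAT4B on the opposite strand share 105 bases with SQSTM1, and MGAT4B held 59.0% of the counts of SQSTM1. Those of MRNIP, also on the opposite strand, share 1582 bases with SQSTM1, and MRNIP held 3.57% of its counts. The part of these overlaps in the SQSTM1 values was not tested. The processed copy SQSTM1P1 had 0 counts.

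**Figure D2:**
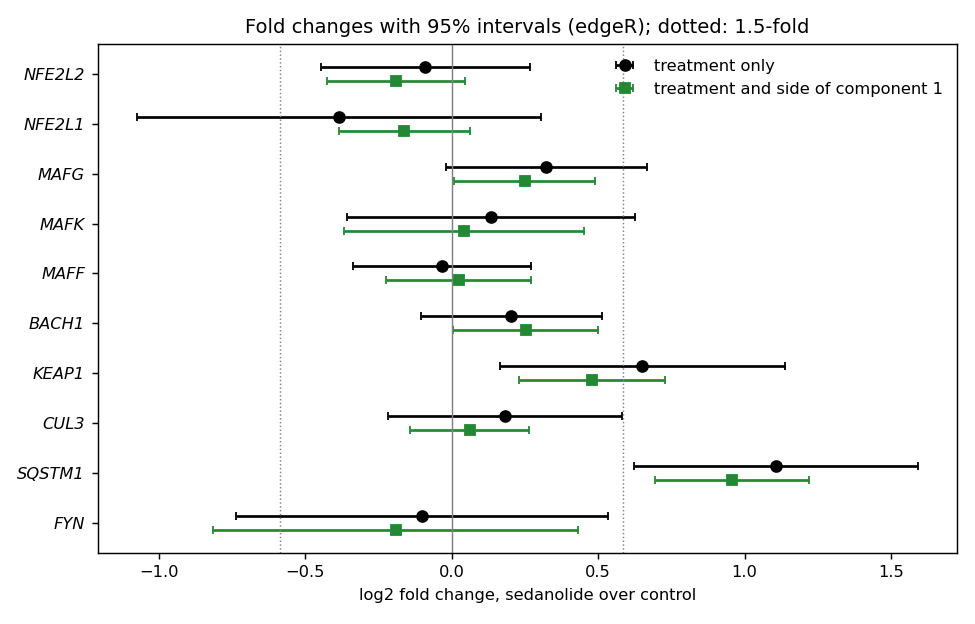
Log2 fold change of sedanolide over control (horizontal axis) with its 95% interval for the 10 members, from edgeR with treatment only (circles) and with the side of the first component as a further term (squares); dotted lines mark 1.5-fold in each direction. The interval of SQSTM1 lies above the upper dotted line in both fits, and that of NFE2L1 is the widest with treatment only. Those of NFE2L2, NFE2L1, MAFF, MAFK, CUL3 and FYN span 0 in both.

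Antioxidant response elements are short, and 2 spellings were searched on both strands: TGACTCAGC, a common strong form, and the looser TGACNNNGC, of which the former is a case. In the 2000 bases before the canonical start of each tested gene, 2.47% of 14075 genes held at least 1 TGACTCAGC, and 10 of them (0.0710%) held at least 2. SQSTM1 was one of those 10, with matches 1311 and 343 bases before its start, both on the opposite strand and both inside introns of longer SQSTM1 transcripts. They are shown because SQSTM1 was the member with the largest change, and the capitals mark the match as it reads on the plus strand of GRCh38.
SQSTM1 distal match, chr5:179819560-179819618: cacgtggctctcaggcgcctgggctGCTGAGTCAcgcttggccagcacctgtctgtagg
SQSTM1 proximal match, chr5:179820528-179820586: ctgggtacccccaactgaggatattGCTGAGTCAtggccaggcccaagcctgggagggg

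The looser spelling stood in the same window of 53.7% of genes, so a match to it is common. MAFG held 1 such match, 1518 bases before its start, and CUL3 and MAFF held 2 and 1. No match to either spelling was found in that window for NFE2L2, NFE2L1, KEAP1, BACH1, FYN or MAFK, which says only that these letters were not there. In the RefSeq promoter windows (250 bases before to 50 after a start, GRCh38), which were given for 9 of the 10 members and not for MAFK, 13.3% of 35116 windows held the looser spelling and 0.561% held TGACTCAGC. One MAFF window held 1 looser match, the one 113 bases before its start. One KEAP1 window, at an alternative start inside the gene, held 2 looser matches in annotated KEAP1 exon sequence, which are shown in lower case with the match in capitals on the minus strand, the strand of the gene, together with the MAFG match. A match is a run of letters and no binding was measured.
KEAP1 match 22 bases before the start, chr19:10502784-10502812: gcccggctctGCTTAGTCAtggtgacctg
KEAP1 match 45 bases before the start, chr19:10502807-10502835: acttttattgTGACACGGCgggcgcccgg
MAFG match, chr17:81929229-81929287: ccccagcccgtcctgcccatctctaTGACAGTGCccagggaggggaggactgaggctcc

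FYN, on chromosome 6 (chr6:111660332-111873452, minus strand), encodes a Src-family kinase linked to the export of NRF2 from the nucleus. It had 30, 34 and 29 expected counts in the controls and 38, 34 and 31 in the sedanolide libraries, or 1.23 to 2.04 CPM over the 6 libraries. It was the member with the fewest counts, and the groups overlapped, with log2 differences of -0.41 within side A and 0.03 within side B. The log2 fold change was -0.10 ± 0.27 (95% interval -0.74 to 0.53; edgeR, adjusted p = 0.907), an interval that held a fall of 1.5-fold and not a rise of that size.

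Between genes, levels can be compared in TPM, which the second table gives for 9 of the members and not for FYN. Over the 6 libraries the order of the mean TPM was NFE2L2 (152.7) and SQSTM1 (152.0), then NFE2L1 (99.9), KEAP1 (66.1) and CUL3 (63.1), then MAFG (20.4), BACH1 (15.98), MAFF (10.00) and MAFK (9.28). NFE2L2 stood at the 91.5th percentile of the 11006 genes of that table and MAFK at the 26.7th. The library ranges of KEAP1 and CUL3 overlapped in both groups, as did those of MAFG and BACH1 in the controls and of MAFF and MAFK in both groups, so these neighbours were not separated by their spread. The range of NFE2L1 overlapped with that of SQSTM1 in the controls and with those of KEAP1 and CUL3 in the sedanolide libraries. The order of the top pair differed between the groups. NFE2L2 was at 148.0 to 180.5 TPM and SQSTM1 at 82.1 to 124.7 TPM in the controls, and NFE2L2 was at 129.1 to 154.0 TPM and SQSTM1 at 189.7 to 205.6 TPM with sedanolide.

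**Figure D3:**
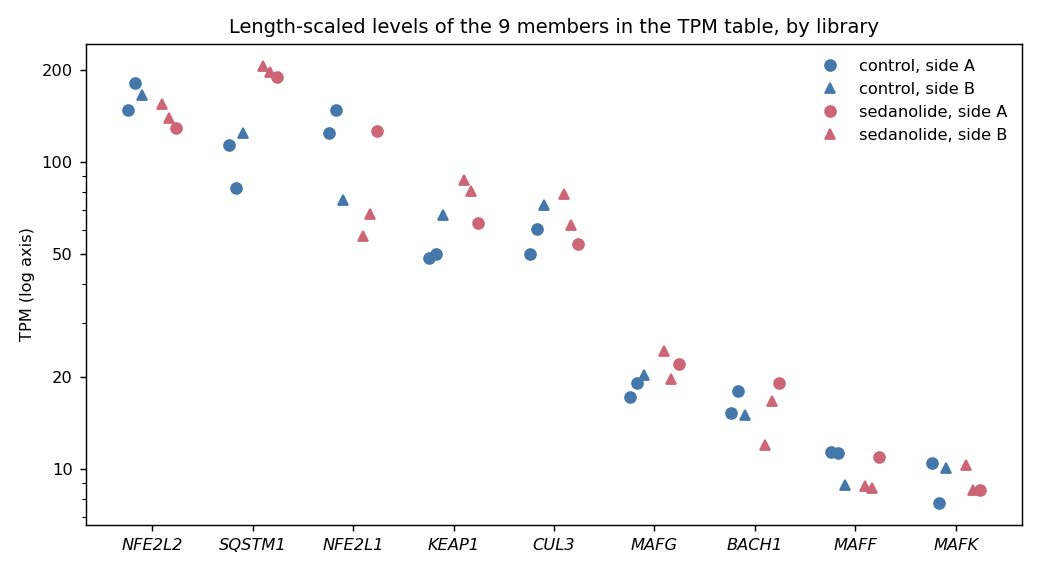
TPM on a log axis for the 9 members of the TPM table, ordered by their mean, with 1 point for each library (blue control, red sedanolide; circles side A, triangles side B). SQSTM1 is the gene whose red points, at 189.7 to 205.6 TPM, all lie above its blue points, and the small MAF genes and BACH1 lie below 25 TPM in every library.

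Ratios of 2 members within a library do not depend on library size. They are ratios of expected counts, not divided by length, so only their change between groups is read. Group values given off the log2 scale are geometric means. The log2 ratio of NFE2L2 to KEAP1 was 1.63, 1.86 and 1.53 in the controls and 0.83, 0.92 and 1.07 with sedanolide. Every sedanolide library was below every control. The geometric mean ratio went from 3.18 to 1.91 counts of NFE2L2 for each count of KEAP1 (log2 difference -0.73, and -0.68 and -0.65 within the sides). The ratio of SQSTM1 to KEAP1 went from 1.31 to 1.83 (log2 difference 0.47), that of MAFG to NFE2L2 from 0.254 to 0.341 (0.42), and that of CUL3 to KEAP1 from 1.12 to 0.824 (-0.45), each with no overlap of the groups. For these 4 ratios the exact two-sided permutation p was 0.1, the smallest that 3 against 3 allow, and 0.125 after adjustment over 5 ratios. NFE2L2 to BACH1 overlapped between the groups (log2 difference -0.30, exact permutation p = 0.3). Because KEAP1 or NFE2L2 enters each ratio, the 5 are not independent.

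**Figure D4:**
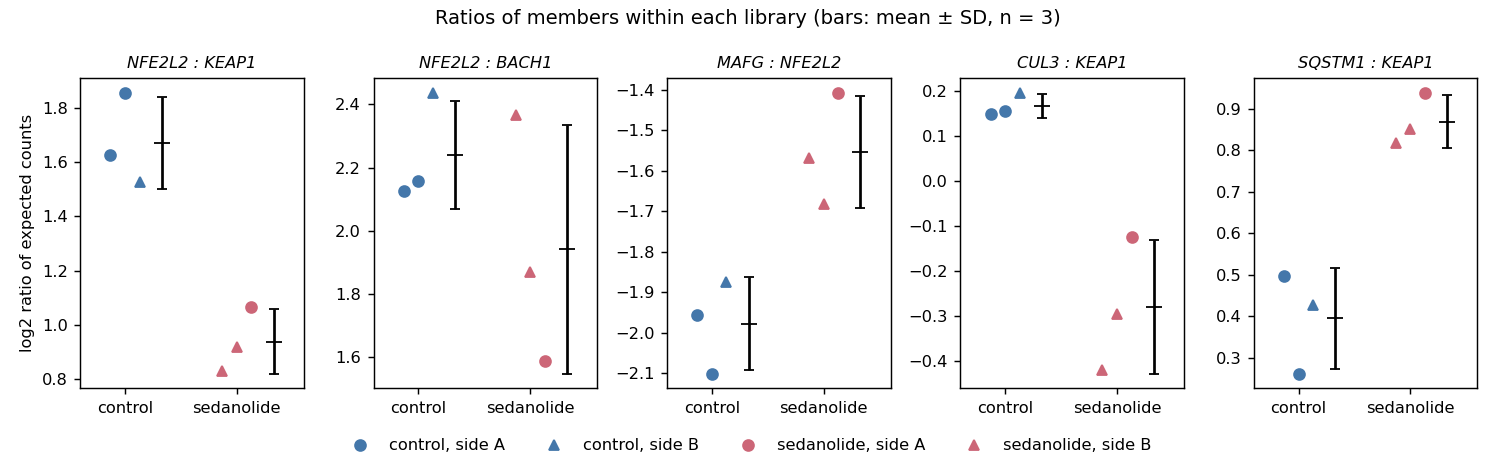
Log2 ratio of the expected counts of 2 members within each library (vertical axes, each with its own scale that does not start at 0), with the mean ± SD of 3 libraries as bars; circles are side A and triangles side B. The sedanolide libraries lie below the controls for NFE2L2 to KEAP1 and CUL3 to KEAP1, and above them for MAFG to NFE2L2 and SQSTM1 to KEAP1. For NFE2L2 to BACH1, sedanolide 1 lies among the controls and sedanolide 2 and 3 lie below them.

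The other genes of the pathway were taken from 10 lists of relatives, partners and modifiers. Among 11 bZIP genes that bind related sites, 2 rose past both thresholds and 0 fell, with a list median log2 fold change of 0.00 (0.362% and 0.312% of all features, median 0.01). FOS, an AP-1 subunit, was at 2.00, 2.20 and 2.49 CPM in the controls and 6.45, 6.18 and 7.06 CPM with sedanolide (log2 fold change 1.55 ± 0.16, edgeR, adjusted p = 0.0172). FOSL1, another AP-1 subunit, was at 4.60, 3.98 and 4.41 and at 8.55, 7.84 and 8.68 CPM (0.95 ± 0.14, edgeR, adjusted p = 0.0379). Neither gene's groups came near to overlapping, but with each library left out in turn FOS passed an adjusted p of 0.05 in 2 of 6 edgeR fits, those without control 3 (0.0464) or sedanolide 3 (0.0194), and FOSL1 in 0 of 6 (0.0587 to 0.227). In those 6 fits 0 to 66 of all features rose past both thresholds. The log2 fold changes were 1.48 to 1.64 for FOS and 0.89 to 0.98 for FOSL1.

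Among 9 autophagy genes, 1 fell past both thresholds and 0 rose, with a list median of -0.17. They were mainly receptors, the relatives of SQSTM1 by function, and included MAP1LC3B and GABARAPL1, whose proteins such receptors bind. OPTN, which encodes the receptor optineurin, was at 42.6, 36.9 and 46.7 CPM in the controls and 22.8, 23.4 and 21.8 CPM with sedanolide (log2 fold change -0.89 ± 0.13, edgeR, adjusted p = 0.0351). It passed in 0 of the 6 edgeR fits that left out a library (adjusted p 0.0525 to 0.241), with log2 fold changes of -0.98 to -0.81. In those fits 0 to 70 of all features fell past both thresholds. With all 6 libraries, 0.312% of all features tested fell and 0.362% rose past both thresholds.

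In the other 8 lists 0 of the 82 genes tested passed both thresholds by edgeR. At an unadjusted p under 0.05, 5 of them were higher (6.10%) and 4 lower (4.88%), near the 5.35% and 6.57% of all features, so the values named next are single-gene values and not a result about the lists. Of the 4 CNC and MAF relatives tested, MAF, a large MAF gene, was among the lower ones, at -0.76 ± 0.20 (adjusted p = 0.186, edgeR). The 11 genes of the KEAP1-CUL3 ligase machinery (list median 0.14), the 7 NRF2 coactivators (-0.04) and the 9 tested genes of NRF1 processing (-0.04) had 0 genes at that unadjusted level. The lists of other ubiquitin ligases (UFD1 at 0.39 and SYVN1 at -0.43), binding proteins (SESN2 at -0.30) and kinases (LYN at 0.40 and TBK1 at 0.38) had 1 to 2 each. Of 6 genes of BACH1 turnover and heme, XPO1, an export receptor for BACH1 (0.41), and ALAS1, the first enzyme of heme synthesis (0.33), were higher at that level.

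**Figure D5:**
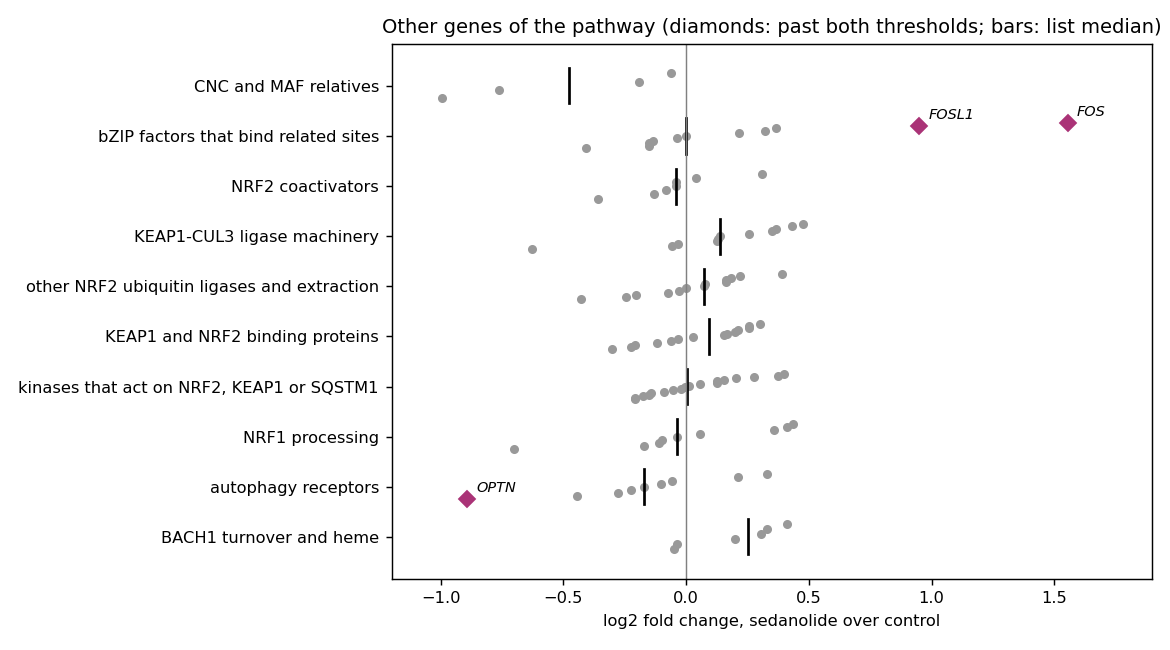
Log2 fold change of sedanolide over control (horizontal axis) for every tested gene of the 10 pathway lists; grey points did not pass both thresholds, diamonds did, and bars are list medians. FOS (1.55) and FOSL1 (0.95) are the diamonds above 0 and OPTN (-0.89) is the one below 0, while the list medians run from -0.48 to 0.25.

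Over the 6 libraries, the genes whose log2 CPM went most closely with that of SQSTM1 were PSMD11 (Pearson r = 0.999), PIR (0.997) and SMIM20 (0.997). All 6 values come from the same libraries and the same treatment groups, so these correlations are a description only.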

How the data were processed

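RNA-seq libraries (3 control, 3 sedanolide at 100 µM for 24 h) were grouped by their labels. The authors used Trimmomatic for trimming, STAR for alignment (GRCh38) and RSEM for gene abundance (versions not given in the sources used here). The deposited tables hold expected counts per gene, of which 7.90% to 8.59% of values were not whole, and log2(TPM + 1) values for 11006 genes, scaled by length and depth. Expected counts were rounded. The library kit kept strand, and whether counting used it is not given in the sources used here. Symbols were matched for 61369 of 61541 gene identifiers.

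Genes were tested with edgeR 4.0.16 (filterByExpr, TMM, quasi-likelihood F-test, Benjamini-Hochberg over 14104 features) in R 4.3.3, after a check on simulated data. Alternatives were DESeq2 1.42.0, limma 3.58.1 (with voom, and on the TPM table), other scalings and filters, a replicate block, a side term and each library left out. Ratios and shares were compared by exact permutation tests. All 10 members were named, with list genes past both thresholds (otherwise at most 2 per list with the smallest p under 0.05) and the 3 genes most correlated with the member of smallest p. A list gene that this rule would name is not reported here. The members and lists were chosen with earlier results of these data known. Positions came from GENCODE 44 and promoter windows from RefSeq. Depth, at 16420258 to 26714853 counts a library, limits the precision for low genes such as FYN, and 3 counts, the most a count of 0 allows, were 0.116 to 0.182 CPM (counting error only). The authors' columns all belonged to these 6 libraries.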

Additional observations from a re-analysis of the deposited data

Results flagged for a closer look

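The SLR3 reporter, a luciferase sequence driven by antioxidant response elements and not a member of the gene group, was tested among the 14104 features and enters the shares given for all of them, but it was in none of the gene lists compared. It gave a signal above the controls, at 267, 344 and 319 expected counts in the controls and 1294, 1782 and 1498 with sedanolide. The log2 fold change was 2.02 ± 0.14 (SE, n = 3 each; edgeR, adjusted p = 0.00324), higher in 3 of 3 sedanolide libraries.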

How the results depend on the processing

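The count of members past both thresholds upward was 0 by edgeR and 1 (SQSTM1) with DESeq2, with all genes of at least 1 count or with the side term. It was 0 to 1 when each library was left out (1 without sedanolide 3). Over all features the same count was 51 by edgeR, 130 with DESeq2 and 151 with the side term. It was 79 of 26457 with all genes of at least 1 count, and 0 to 66 when each library was left out (66 without sedanolide 3). At an unadjusted p under 0.05 the count of members upward was 2, against 4 with the side term and 1 with the replicate block. It was 1 to 3 when each library was left out (1 without control 1 or without control 2). The count over all features at that unadjusted level moved too, from 754 to 1332 with the side term, 283 with the block and 350 to 1532 when each library was left out. Downward, the count of members at that level was 0, and 0 to 1 when each library was left out (1, NFE2L1, without sedanolide 3). Over all features the downward count was 927, and 539 to 1719 when each library was left out. The fit without sedanolide 3, in which NFE2L1 was counted, was the one with 1719 of 14128 features. Same-numbered libraries did not deviate together (correlations -0.13, -0.30 and -0.73). The split between the sides enters these values, so they cannot tell whether the numbers pair libraries. With the replicate block 0 features passed. Of 149 log2 fold changes of members under 15 settings, 9 changed sign, all of members whose interval spans 0. With each library left out, NFE2L2 ran from -0.21 to 0.029 and FYN from -0.36 to 0.030 (both positive without sedanolide 3), MAFF from -0.094 to 0.032 (positive without control 1 or, at 0.0009, sedanolide 2) and MAFK from -0.048 to 0.26 (negative without sedanolide 1 or, at -0.012, control 2). MAFF was 0.024 with the side term, and MAFK was -0.038 and BACH1 -0.031 in the TPM table. The cause was not tested.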

Other observations

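The ELuc reporter, the internal-control luciferase of the same cells, had 309, 440 and 327 expected counts in the controls and 241, 261 and 205 with sedanolide, a log2 fold change of -0.84 ± 0.18 (edgeR, adjusted p = 0.131).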
